A study of Mus musculus with 16 samples.

Results

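The genes described here encode 10 peptide hormones of the gut: *Gcg*, *Gip*, *Cck*, *Sct*, *Sst*, *Nts*, *Pyy*, *Ghrl*, *Tac1* and *Gal*. They were chosen by gene symbol and are 10 of 45513 genes counted. From each of 8 mice, live cells of the small intestine were sorted into an EpCAM+tdTom+ and an EpCAM+tdTom- fraction, and the RNA of each was sequenced, giving 16 libraries. All mice carried Atoh1(WT)CreERT2 in the homozygous state, in which a tamoxifen-inducible Cre follows the intact *Atoh1* coding sequence, together with the R26RtdTom reporter. They were males and females of 8 to 16 weeks on a C57BL/6 background. Per the labels, each received 1 mg of tamoxifen a day on 3 days in a row, so the tdTom- cells are unlabelled cells of the same treated animals and not of untreated ones. tdTom marks cells that expressed *Atoh1* while Cre was active, and their descendants. EpCAM is a surface protein of epithelium. The methods of the study describe dissection of the proximal part of the small intestine and release of crypts in steps, with the early, villus-rich step thrown away, so the cells came from a crypt-enriched preparation.

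Enteroendocrine cells are scattered hormone-producing cells of the gut epithelium. They arise from secretory precursors that pass through expression of *Atoh1* and then of *Neurog3*, and they change the hormones they make as they leave the crypt and move up the villus. Their names once followed single hormones (L cells for *Gcg* and *Pyy*, K cells for *Gip*, I cells for *Cck*, S cells for *Sct*, D cells for *Sst*, N cells for *Nts*, X cells for *Ghrl*), but many cells make several. *Gip*, *Cck*, *Sct* and *Ghrl* are known mainly from the upper small intestine, *Gcg*, *Pyy* and *Nts* mainly from the lower.

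To show the DNA in front of genes that differed from one another between the fractions, the bases just before the start site are printed for *Gcg*, *Ghrl*, *Sct* and *Nts*, which lie from near the top to the bottom of the order described below. Sequences are from RefSeq on GRCm38.p6, run 5′ to 3′ on the strand of the gene, and end at the base before the start or, for *Nts*, before the first annotated exon. Capitals mark the E-box CANNTG, a core to which basic helix-loop-helix factors such as ATOH1, NEUROG3 and NEUROD1 bind, and TATAAA, the TATA box, each searched on both strands (TTTATA is TATAAA read on the other strand, and CANNTG includes CAGATG and CAGCTG).
Gcg, chr2:62483654-62483903, minus strand: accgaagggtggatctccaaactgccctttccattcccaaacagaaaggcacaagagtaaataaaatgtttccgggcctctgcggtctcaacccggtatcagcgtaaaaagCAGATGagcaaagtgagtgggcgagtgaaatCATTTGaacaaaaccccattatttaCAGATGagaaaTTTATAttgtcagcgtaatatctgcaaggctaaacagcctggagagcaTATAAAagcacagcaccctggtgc
Ghrl, chr6:113719912-113720161, minus strand: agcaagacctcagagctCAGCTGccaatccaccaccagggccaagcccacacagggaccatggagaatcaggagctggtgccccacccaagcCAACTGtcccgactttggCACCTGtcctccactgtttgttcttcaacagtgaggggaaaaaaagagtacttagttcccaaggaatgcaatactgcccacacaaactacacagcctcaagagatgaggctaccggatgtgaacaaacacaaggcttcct
Sct, chr7:141279134-141279383, minus strand: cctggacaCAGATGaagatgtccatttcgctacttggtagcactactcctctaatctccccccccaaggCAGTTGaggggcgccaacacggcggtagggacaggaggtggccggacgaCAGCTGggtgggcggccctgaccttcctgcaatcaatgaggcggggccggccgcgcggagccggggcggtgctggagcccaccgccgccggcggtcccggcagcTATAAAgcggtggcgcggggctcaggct
Nts, chr10:102490487-102490668, minus strand: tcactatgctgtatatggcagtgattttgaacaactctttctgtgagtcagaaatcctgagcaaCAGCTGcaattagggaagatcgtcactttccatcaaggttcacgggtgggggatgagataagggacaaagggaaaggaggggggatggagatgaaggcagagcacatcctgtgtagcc
The *Gcg* stretch holds 3 E-boxes, of which 2 read CAGATG, and TATAAA begins 24 bases before the start. *Ghrl* holds 3 E-boxes and no TATAAA. *Sct* holds 3 E-boxes, with TATAAA 28 bases before the start. In the *Nts* stretch there is 1 E-box, which reads CAGCTG.

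All 10 genes had a RefSeq window of 250 bases before a start, and where a gene had several, the one nearest the start of the gene in the files was used. An E-box was found in 9 of the 10 windows, all but that of *Gal*, and in 66.2% of all 32851 windows. CAGATG was in 4 of 10 (14.4% of all windows), CAGCTG in 4 of 10 (13.0%) and TATAAA in 2 of 10 (12.4%). The cAMP response element TGACGTCA was in 1 of the 10, *Sst*, where it begins 48 bases before the start, and in 1.55% of all windows. *Nts*, *Pyy* and *Sst* have 1 E-box each, *Gip* and *Tac1* have 2, and *Gcg*, *Sct*, *Cck* and *Ghrl* have 3. The windows of *Sst*, *Nts* and *Tac1* run into an annotated exon of the same gene, with 136, 182 and 68 bases in front of it. The TGACGTCA of *Sst* and the 2 E-boxes of *Tac1* lie past that point and not in front of the exon. For *Tac1*, the RefSeq start lies 182 bases from the start of the gene in the files. A relation of these numbers to the fold changes was not tested. These matches describe letters only, and binding was not measured.

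Of the 10 hormone genes, 8 were higher in tdTom+ cells, none was lower, and *Nts* did not differ, at an adjusted p under 0.01 in edgeR's quasi-likelihood test paired by mouse. *Gal* was below the filter on low counts and was not tested. The size differed widely among them, from 13.7-fold for *Tac1* and 10.4-fold for *Gcg* to 1.58-fold for *Pyy*. Among all 15323 genes tested, 25.8% were higher and 30.0% lower in tdTom+ cells, so a single call carries little, and the count is to be read against those shares. The share of all genes whose fractions did not overlap was not computed, so a lack of overlap below is a description only. Levels below are CPM, read counts scaled to a common library size with factors from the trimmed mean of M-values (TMM), given as mean ± SD over 8 libraries, and differences are log2 fold changes of tdTom+ over tdTom- with their standard error (SE). In sorted bulk RNA, fewer cells of a type and less RNA per cell cannot be told apart.

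**Figure D1:**
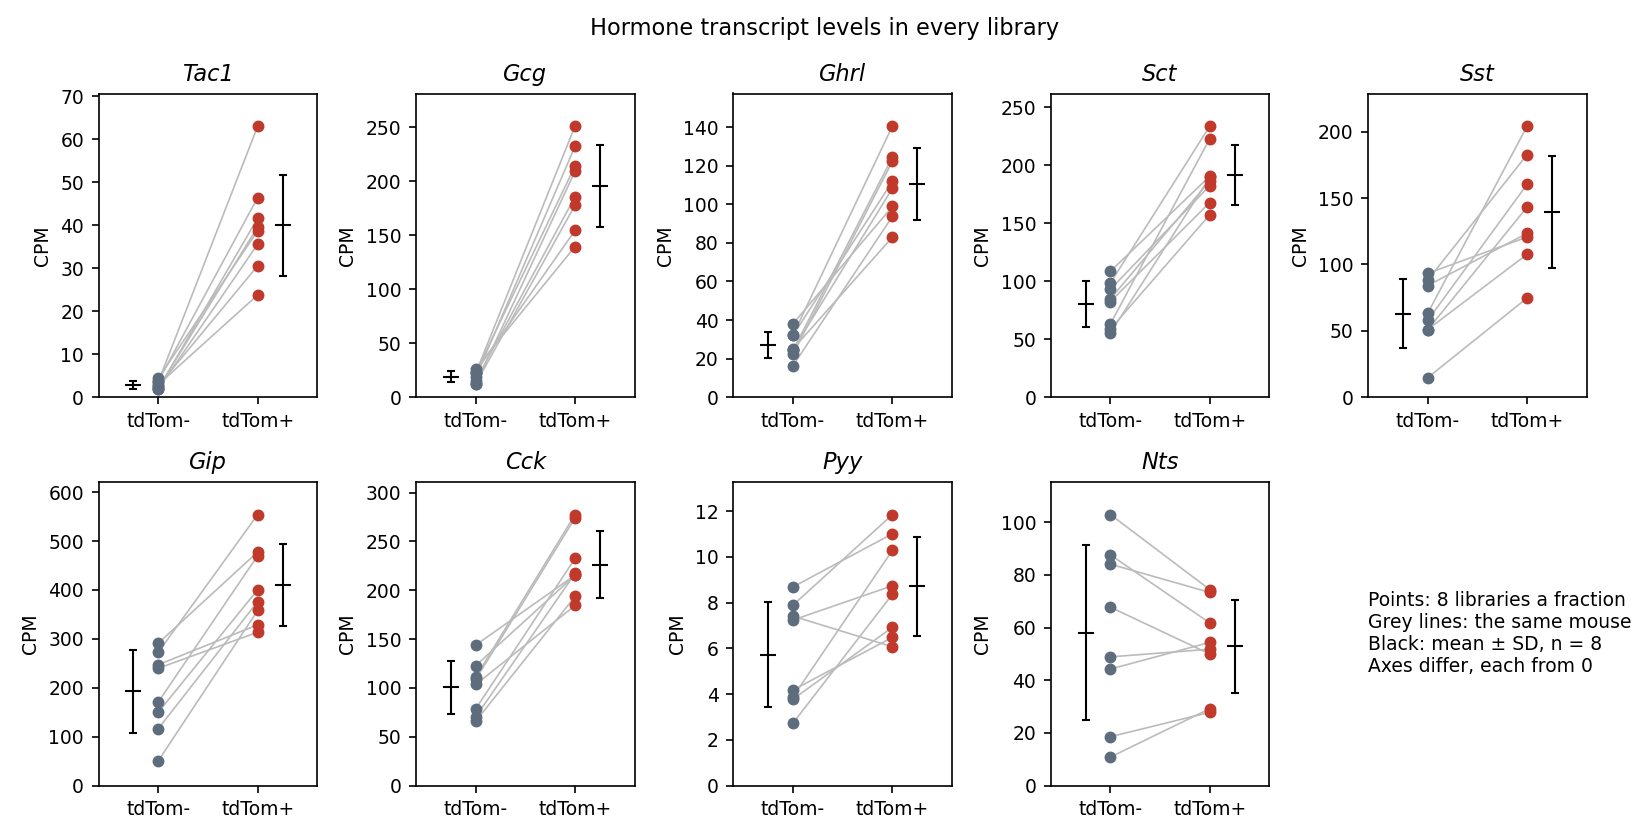
Level of each of 9 hormone genes in CPM (vertical axes, each from 0 and each with its own range) in the 8 tdTom- and 8 tdTom+ libraries, with grey lines joining libraries of 1 mouse and black marks for mean ± SD. All lines climb for *Tac1*, *Gcg*, *Ghrl*, *Sct*, *Sst*, *Gip* and *Cck*, 7 of 8 climb for *Pyy*, and 4 of 8 for *Nts*.

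*Gcg* (ENSMUSG00000000394, GRCm38 chromosome 2, 62474530 to 62483650) encodes proglucagon, which enteroendocrine cells cut into GLP-1 and GLP-2. In tdTom+ libraries its level had a minimum of 140 CPM, a median of 198 CPM and a maximum of 251 CPM, and in tdTom- libraries a minimum of 12.2, a median of 20.2 and a maximum of 26.5 CPM. The lowest tdTom+ library was thus above the highest tdTom- library. The log2 fold change was 3.38 (SE 0.17, adjusted p 6.4e-10, edgeR), and 375 of all genes tested (2.45%) had a larger one. The ratio was smallest in mouse 1, at 2.40 on the log2 scale, and largest in mouse 3, at 4.10.

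*Gip* (ENSMUSG00000014351, chromosome 11, 96024545 to 96030831) encodes the other incretin, the hormones that raise insulin release after a meal. It was the most counted of the 10 in both fractions, with 314, 388 and 554 CPM as the lowest, median and highest of the tdTom+ libraries. The tdTom- libraries spread more, with 50.9, 206 and 291 CPM. The fractions did not overlap, and the log2 fold change was 1.22 (SE 0.22, adjusted p 2.4e-04, edgeR). The log2 ratio within a mouse ran from 0.39 in mouse 1 to 2.81 in mouse 7, whose tdTom- library had the lowest *Gip* of all. *Gcg* and *Gip*, both hormones that act on the islet, therefore differed from each other by 2.14 ± 0.79 (SD, n = 8 mice) on the log2 scale (exact sign-flip test, adjusted p 0.0117).

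*Cck* (ENSMUSG00000032532, chromosome 9, 121489825 to 121495689) encodes cholecystokinin, which contracts the gallbladder and drives pancreatic enzyme release, and *Sct* (ENSMUSG00000038580, chromosome 7, 141278331 to 141279133) encodes secretin, which drives bicarbonate release. *Cck* had a minimum of 185, a median of 217 and a maximum of 278 CPM in tdTom+ libraries, against 65.9, 106 and 144 CPM in tdTom- libraries. For *Sct* the same values were 158, 188 and 234 CPM against 55.2, 83.7 and 109 CPM. Neither gene overlapped between the fractions, and both were higher in tdTom+ cells in 8 of 8 mice. The log2 fold changes were 1.20 for *Cck* (SE 0.12, adjusted p 6.8e-07) and 1.28 for *Sct* (SE 0.11, adjusted p 1.7e-07, both edgeR).

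*Sst* (ENSMUSG00000004366, chromosome 16, 23889581 to 23890844) encodes somatostatin, the inhibitor of most other gut hormones. Its lowest, median and highest tdTom+ libraries stood at 74.8, 133 and 204 CPM, and its tdTom- libraries at 14.7, 60.6 and 93.3 CPM. These ranges overlapped, since the tdTom+ library of mouse 7 lay below the tdTom- libraries of mice 2, 4 and 8, while within each mouse the tdTom+ library was the higher (8 of 8). The log2 fold change was 1.24 (SE 0.17, adjusted p 2.4e-05, edgeR). The ratio ran from 0.37 in mouse 8 to 2.34 in mouse 7 on the log2 scale.

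*Ghrl* (ENSMUSG00000064177, chromosome 6, 113716119 to 113719880) encodes ghrelin, the hunger hormone made mainly in the stomach. Levels were 83.0, 110 and 141 CPM (lowest, median, highest) in tdTom+ libraries and 16.4, 24.8 and 38.1 CPM in tdTom- libraries, without overlap. The log2 fold change was 2.06 (SE 0.12, adjusted p 2.3e-09, edgeR). Of 8 gastric markers counted, 3 passed the filter and 2 were higher in tdTom+ cells, beside 25.8% of all genes tested. Those were *Pgc*, which encodes pepsinogen C, at 4.69 CPM against 1.81 CPM (log2 fold change 1.40, SE 0.17, adjusted p 7.4e-06, edgeR), and *Gif*. *Gif* passed the filter through the tdTom+ libraries alone, with 21 to 126 counts there and 0 to 3 in tdTom- libraries. With at least 10 counts required in every library, 1 gastric marker was higher, where 4448 of all genes were higher. The proton-pump gene *Atp4b* was at 0 in all 16 libraries and *Gkn1*, *Gkn2*, *Tff1* and *Muc5ac* had at most 6 counts in any library. *Gif*, which encodes the intrinsic factor of gastric gland cells, averaged 3.04 CPM in the tdTom+ fraction and 0.024 CPM in the other, and the summed gastric list at 6.54 to 12.6 against 1.05 to 3.32 CPM. The part of these genes in the *Ghrl* difference was not tested.

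*Tac1* (ENSMUSG00000061762, chromosome 6, 7554879 to 7565834) encodes the tachykinin substance P, made in the gut by serotonin-producing enterochromaffin cells and by enteric neurons. It had the largest difference of the 10. Its tdTom+ libraries lay at 23.8, 39.2 and 63.1 CPM (lowest, median, highest) and its tdTom- libraries at 1.89, 2.77 and 4.39 CPM, on 39 to 104 counts a library. The fractions were far apart in 8 of 8 mice, and the log2 fold change stood at 3.78 (SE 0.15, adjusted p 7.2e-11, edgeR). Among 12 neuronal and glial markers, *Sox10* was at 0 in all libraries, and *Nos1*, *S100b* and *Gfap* had at most 5 counts in any library. The summed list stood at 12.2 to 20.2 CPM in tdTom+ and 2.74 to 10.3 CPM in tdTom- libraries, of which the receptor gene *Ret*, also made by epithelial cells, gave 13.3 and 5.39 CPM on average.

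*Pyy* (ENSMUSG00000017311, chromosome 11, 102106676 to 102107832) encodes peptide YY, a satiety hormone that L cells make beside the products of *Gcg*. It was scarce, with 6.07, 8.55 and 11.9 CPM in tdTom+ and 2.74, 5.71 and 8.69 CPM in tdTom- libraries. The fractions overlapped, and the ratio was negative in mouse 1, at -0.28 on the log2 scale, and positive in the other 7. At 0.66 on the log2 scale (SE 0.17, adjusted p 0.0042, edgeR), the difference passed the threshold only narrowly. Without the replicate block it was 0.61 with an adjusted p of 0.0284, and without mouse 5 or mouse 6 the adjusted p was 0.0126 or 0.0105, so that the call was lost in each case. It differed from *Gcg* by 2.71 ± 0.60 (SD, n = 8 mice) on the log2 scale (exact sign-flip test, adjusted p 0.0117).

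*Nts* (ENSMUSG00000019890, chromosome 10, 102481760 to 102490418) encodes neurotensin, which slows gut movement and aids fat uptake. It was the 1 gene of the 9 tested with no call. Levels were 27.8, 53.1 and 74.4 CPM (lowest, median, highest) in tdTom+ libraries and 10.9, 58.3 and 103 CPM in tdTom- libraries, whose spread of 57.1% (coefficient of variation) was the widest of the 9. The log2 fold change was 0.06 (SE 0.17, adjusted p 0.769, edgeR). The direction split the mice. *Nts* was lower in tdTom+ cells of mice 1, 2, 3 and 4, with log2 ratios of -0.44, -0.20, -0.47 and -0.50, and higher in those of mice 5, 6, 7 and 8, with 0.30, 0.08, 1.42 and 0.58. Without the replicate block the estimate was -0.14 (adjusted p 0.762), and without mouse 7 -0.10 (adjusted p 0.454, edgeR).

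*Gal* (ENSMUSG00000024907, chromosome 19, 3409919 to 3414472) encodes galanin, a neuropeptide of enteric nerves. It had 12 counts over all tdTom+ libraries and 1 over all tdTom- libraries, with at most 3 in any library. The limit that a count of 0 allows, 3 counts, is 0.123 to 0.191 CPM in these libraries, and it covers counting error only. No library held more counts than that, so no fold is given. With no filter on low counts, the edgeR test of *Gal* gave an adjusted p of 0.0485, not past the threshold.

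**Figure D2:**
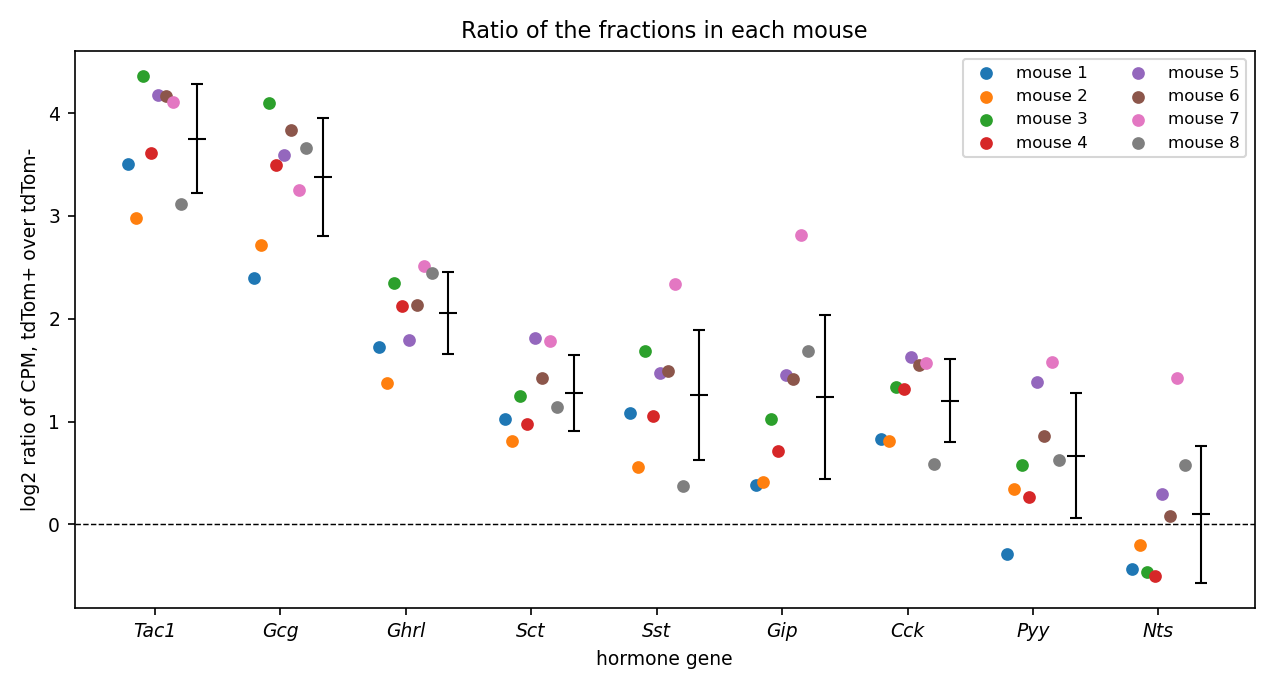
Log2 ratio of tdTom+ to tdTom- CPM (vertical axis) in each of 8 mice (coloured points) for 9 hormone genes (horizontal axis) in order of the log2 fold change, with black marks for mean ± SD and a dashed line at no difference. *Tac1* and *Gcg* lie highest in every mouse, *Ghrl* follows on average, *Sct*, *Sst*, *Gip* and *Cck* overlap one another, and *Nts* straddles the line.

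Whether the fractions differed more in one hormone than in another was asked within mice, by an exact two-sided sign-flip test on the 36 pairs of the 9 hormones, with p adjusted over the 36. The smallest p that 8 mice allow is 0.007812. In 29 pairs the adjusted p was under 0.05. *Tac1* exceeded *Gcg* by 0.37 ± 0.50 (SD, n = 8) in 7 of 8 mice, which was not past the threshold (adjusted p 0.0938, exact), but without mouse 8 it was (0.50, adjusted p 0.0208, exact). *Gcg* exceeded *Ghrl* by 1.32 ± 0.44 in 8 of 8 mice (adjusted p 0.0117, exact), and *Ghrl* exceeded *Sct* by 0.78 ± 0.42 in 7 of 8 (adjusted p 0.0208, exact). The 6 pairs among *Sct*, *Sst*, *Gip* and *Cck* gave mean differences of 0.017 to 0.074 with SDs of 0.28 to 0.72 and adjusted p of 0.590 to 0.945, so these 4 hormones could not be ranked.

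At the lower end, *Cck* exceeded *Pyy* by 0.54 ± 0.45 in 6 of 8 mice (adjusted p 0.0388, exact), a call lost on leaving out any of mice 1 to 6 (adjusted p 0.0776, exact). *Pyy* exceeded *Nts* by 0.57 ± 0.41 in 8 of 8 mice (adjusted p 0.0117, exact). *Nts* lay below each of the other 8 hormones in this test, with adjusted p of 0.0117 or 0.0208 (exact). The 3 hormones known mainly from the lower small intestine thus lay at both ends of the order, *Gcg* near the top and *Pyy* and *Nts* at the bottom.

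Levels of different genes were compared per kilobase of exon, as a description. In tdTom+ libraries the order was *Gip* at 597 ± 122 CPM per kb (SD, n = 8), *Sct* at 359 ± 48.1, *Cck* at 331 ± 49.6, *Sst* at 233 ± 70.1, *Ghrl* at 209 ± 35.3, *Gcg* at 131 ± 25.6, *Nts* at 44.9 ± 14.9, *Pyy* at 13.8 ± 3.43 and *Tac1* at 11.8 ± 3.43. *Sct* and *Cck* (7 of 8 libraries in this order), *Sst* and *Ghrl* (6 of 8) and *Pyy* and *Tac1* (6 of 8) are neighbours that do not differ beyond their spread, and the other neighbours held their order in 8 of 8 libraries. In tdTom- libraries *Gip*, *Sct*, *Cck*, *Sst* and *Ghrl* kept these places (280 ± 122, 151 ± 36.8, 147 ± 39.7, 105 ± 43.0 and 51.1 ± 13.0 CPM per kb). *Nts*, at 49.4 ± 28.2, stood beside *Ghrl* and ahead of *Gcg*, at 12.8 ± 3.60, with *Pyy* at 9.07 ± 3.65 and *Tac1* last at 0.851 ± 0.272. Library by library, *Sct* was above *Cck* in 6 of 8 and *Ghrl* above *Nts* in 5 of 8, while *Cck* was above *Sst* and *Pyy* above *Tac1* in 8 of 8 and the other neighbours held their order in 7 of 8.

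The 10 genes summed to 1930 ± 313 CPM per kb in tdTom+ and 806 ± 243 CPM per kb in tdTom- libraries (SD, n = 8). *Gip* gave the largest share in both, 30.8% ± 1.83 and 33.4% ± 8.06. *Gcg* took 6.82% ± 1.11 of the tdTom+ sum and 1.77% ± 0.954 of the tdTom- sum, *Ghrl* 10.9% ± 0.991 and 6.61% ± 1.54, and *Tac1* 0.616% ± 0.20 and 0.119% ± 0.0712. These 3 shares were larger in the tdTom+ library of 8 of 8 mice. The shares of *Nts*, 2.33% ± 0.734 and 5.73% ± 2.33, and of *Pyy*, 0.716% ± 0.145 and 1.11% ± 0.184, were larger in the tdTom- library of 8 of 8 mice. Between libraries the shares of *Gip*, *Cck* (SD 1.47 against 6.03) and *Sst* (2.13 against 4.01) varied less in tdTom+ cells. Those of *Gcg* (SD 1.11 against 0.954) and *Tac1* (0.20 against 0.0712) had the smaller SD in tdTom- cells, where their mean shares were also lower. Relative to its mean, neither share varied less there.

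**Figure D3:**
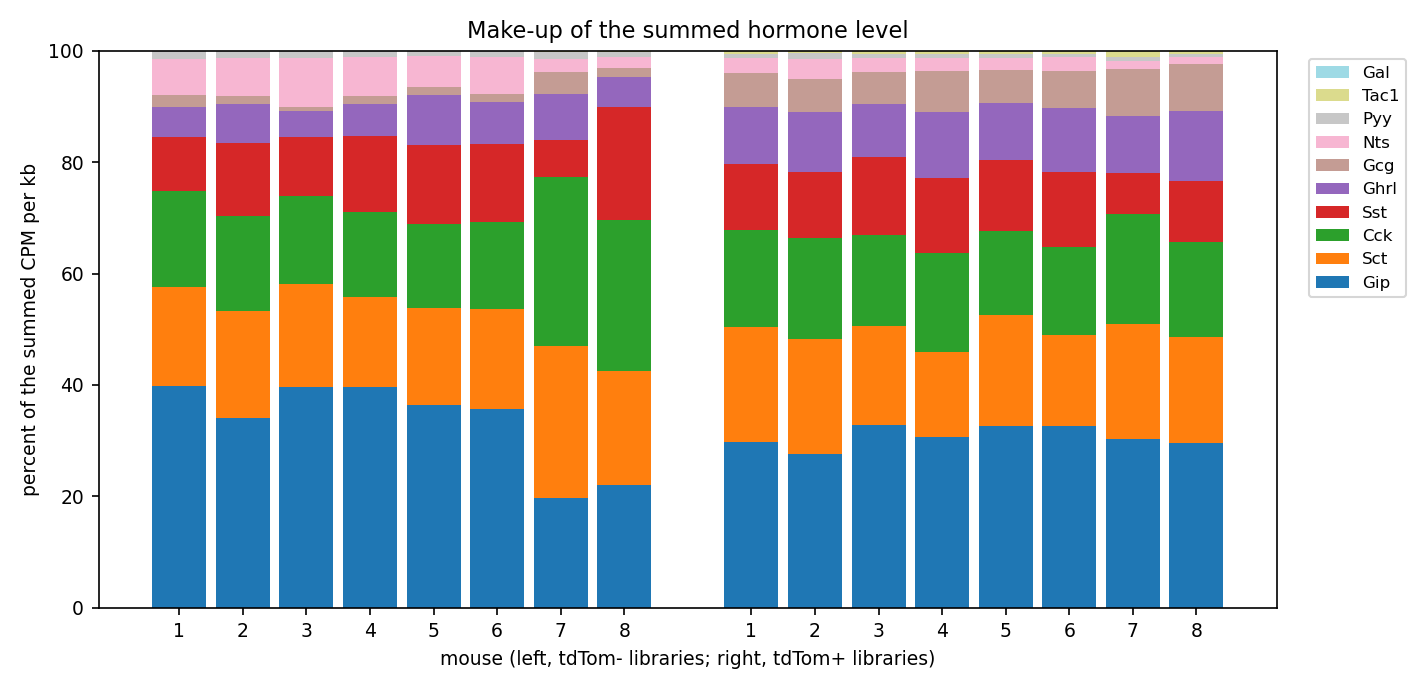
Share of each hormone gene in the summed CPM per kb of the 10 genes (vertical axis, percent) in each library, with tdTom- libraries of mice 1 to 8 on the left and tdTom+ libraries on the right. *Gip* is the largest block of most bars, the *Gcg* block is wider on the right, the *Nts* block is wider on the left, and the tdTom- bars of mice 7 and 8 show less *Gip* and more *Cck* than the others.

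The spread among mice is given as a description. The coefficient of variation was larger in tdTom- than in tdTom+ libraries for all 9 genes tested, for example 43.7% against 20.4% for *Gip* and 40.2% against 24.9% for *Pyy*. In tdTom- libraries mice 1 to 4 lay above mice 5 to 8 for *Gip* (240 to 291 against 50.9 to 171 CPM), *Nts* (67.7 to 103 against 10.9 to 48.9 CPM) and *Pyy* (7.24 to 8.69 against 2.74 to 4.18 CPM), without overlap. The labels name no batch, day or litter that sets these mice apart, and the split was seen in the values. In tdTom+ libraries the same mice overlapped in *Gip* and *Pyy*, while *Nts* was lowest in mice 7 and 8 at 29.2 and 27.8 CPM.

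Across the 8 mice 99 relations were computed, each between the log2 CPM of a pair of hormones within a fraction, of 1 hormone in both fractions, or of a hormone and an index of proximal over distal intestinal markers. By Pearson's r 2 passed an adjusted p of 0.05 and 20 had a raw p under 0.05, and by Spearman's rho 0 passed. The 2 were *Gip* with *Nts* and *Sct* with *Pyy*, both in tdTom- libraries. Since *Gip*, *Nts* and *Pyy* each fall there into the separate runs of mice 1 to 4 and 5 to 8 described above, no pooled r is given, and 4 mice are too few for a value within a run. No relation with the regional index passed.

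**Figure D4:**
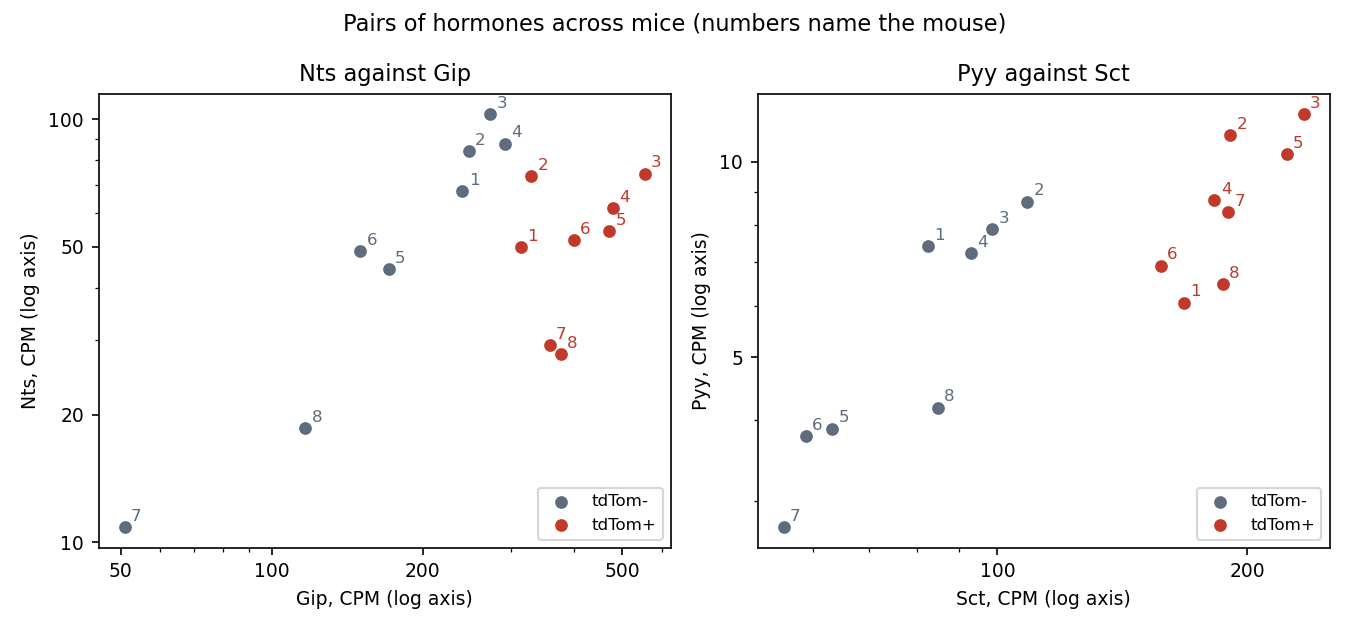
Left, *Nts* against *Gip*, and right, *Pyy* against *Sct*, in CPM on log axes, with 1 point a library and the number of the mouse beside it. In both plots the tdTom- points form a lower run of mice 5 to 8 and an upper run of mice 1 to 4 along the vertical axis, and the tdTom+ points do so in neither.

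The transcription factors that make enteroendocrine cells were all higher in tdTom+ cells, 16 of 16 tested, beside 25.8% of all genes tested. A gene can pass the filter through the tdTom+ libraries alone, so this count is no support for a direction of the list. With at least 10 counts required in every library, 12 factors were higher and none lower. Over all genes under that rule 4448 were higher and 3356 lower, with a median log2 fold change of 0.124. The median log2 fold change of the 16 was 2.19 beside 0.017 over all genes. *Neurog3*, the factor that commits a precursor to the hormone lineage and is then switched off, was the largest at 4.01 (SE 0.15, adjusted p 5.0e-11, edgeR), with 15.3 CPM in tdTom+ and 0.977 CPM in tdTom- libraries. *Rfx3*, a factor of many ciliated and endocrine cells, was the smallest at 0.99 (SE 0.10). *Nkx2-2* at 3.46, *Pax4* at 3.11 and *Fev* at 3.10, which act in the specification of hormone cells or, for *Fev*, in serotonin cells, had larger values than the 1.20 to 1.28 of *Cck*, *Gip*, *Sst* and *Sct*, a comparison not tested. *Lmx1a*, of enterochromaffin cells, stood at 1.63 and *Neurod1*, which is kept in differentiated cells, at 1.61. *Atoh1* itself had 62.5 CPM in tdTom+ and 0.718 CPM in tdTom- libraries (log2 fold change 6.43, SE 0.12), and *Epcam*, used in the sort, did not pass the threshold (log2 fold change -0.11, adjusted p 0.109, edgeR).

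Of the granins and prohormone-processing genes, 9 of 10 tested were higher in tdTom+ cells and none lower, with a median of 1.34. Over all genes tested 25.8% were higher and 30.0% lower. *Pcsk1*, the convertase that releases GLP-1 from proglucagon, was the largest at 1.99 (SE 0.10, adjusted p 7.7e-10, edgeR), at 67.8 against 17.2 CPM. The secretory-granule proteins *Chgb* and *Chga* followed at 1.98 and 1.71. *Pcsk1n*, which encodes an inhibitor of that convertase, was the smallest called, at 0.81 (SE 0.20), and *Vgf* was not called, at 0.68 (adjusted p 0.0144, edgeR). *Pcsk2*, the convertase that makes glucagon in islet alpha cells, was below the filter with at most 15 counts in any library, and *Ins1* and *Ins2* were at 0 in all 16. Of 8 islet and acinar markers 1 was tested, *Cela1*, which was not called (log2 fold change 0.004), and the acinar marker *Ctrb1*, below the filter, had 9 to 32 counts in tdTom+ and 0 to 3 in tdTom- libraries.

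Genes of serotonin, the amine that enterochromaffin cells store beside substance P, went both ways. *Slc18a1*, the vesicle transporter, was higher at 1.47 (SE 0.10), as were *Slc18a2* at 1.29 and *Tph1*, the first enzyme of its synthesis, at 1.11. *Ddc* and *Maob*, which encode the next enzyme and a breakdown enzyme and are also made by other cells, were lower at -1.30 and -2.47. The log2 fold change of *Tac1* was thus above that of all 3 storage and synthesis genes that were higher, a comparison not tested. Of 17 other gut peptides 5 were tested and 3 were higher, beside 25.8% of all genes tested. Here too a gene can pass the filter through the tdTom+ libraries alone, so the count is no support for a direction. With at least 10 counts required in every library, 1 was higher and none lower, where 4448 of all genes were higher. The 3 were *Nucb2* (nucleobindin 2, 4.78, SE 0.10), *Ucn3* (urocortin 3, 2.35) and *Iapp* (amylin, 0.78, adjusted p 8.8e-04 and 0.0608 without the block, edgeR). *Cartpt*, at -0.48 (adjusted p 0.0409), and *Adm*, at 0.13, were not called, and *Vip*, *Ppy*, *Npy* and *Pdyn* were at 0 in all libraries.

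**Figure D5:**
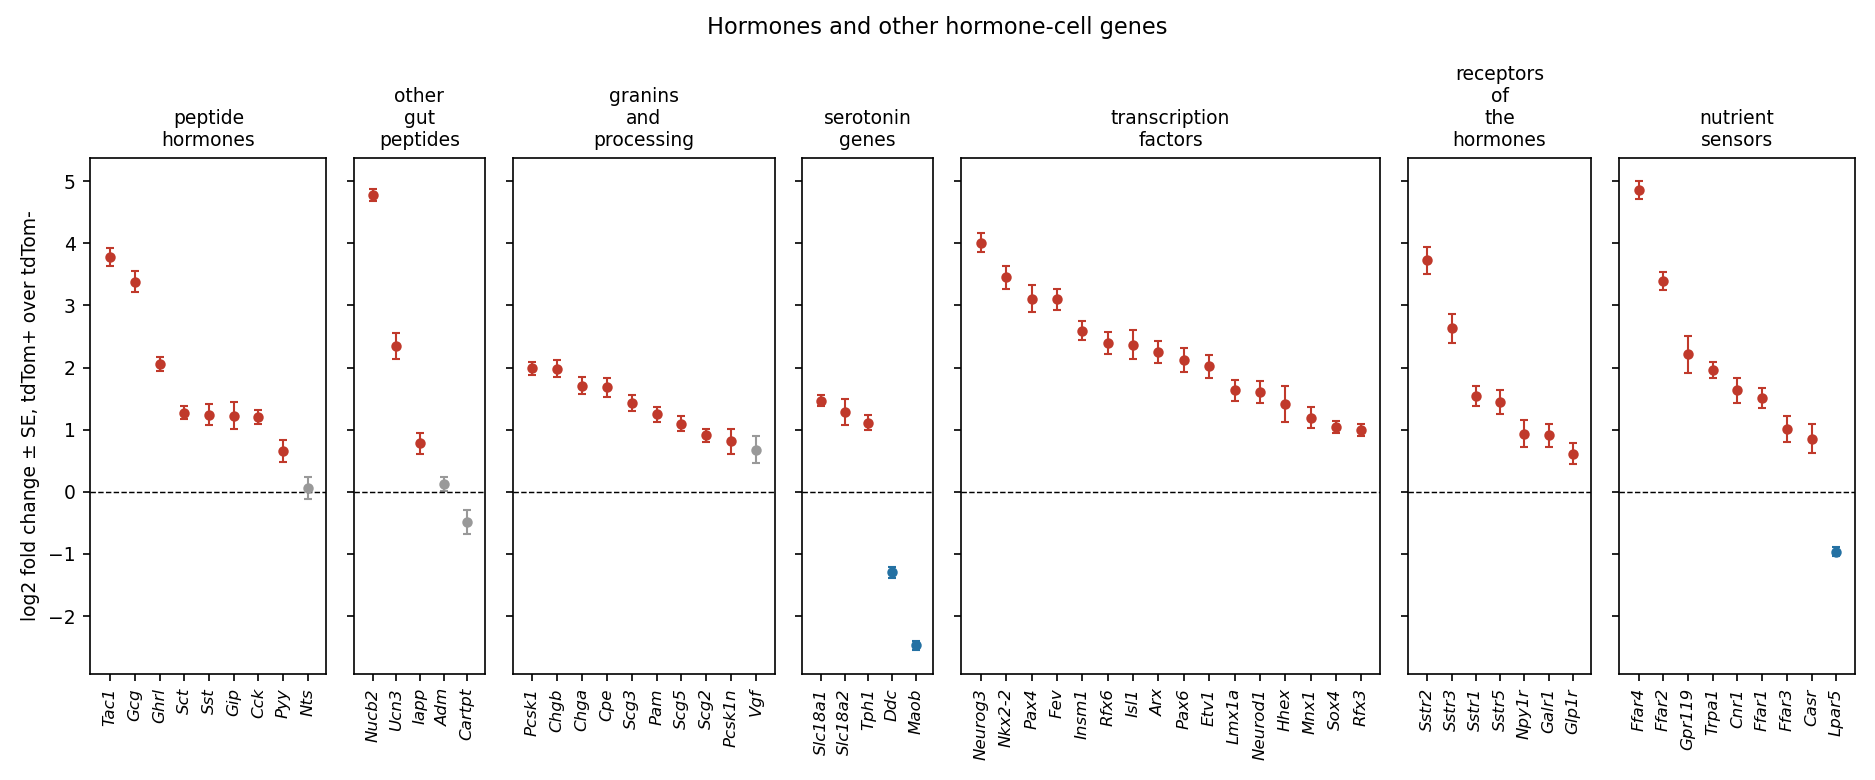
Log2 fold change of tdTom+ over tdTom- (vertical axis, ± SE, edgeR paired by mouse, 8 mice) of the tested genes of 7 lists, in red where higher, blue where lower and grey where not called at an adjusted p under 0.01. All 16 transcription factors are red, and the hormones run from 3.78 for *Tac1* to 0.06 for *Nts*.

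Receptors for the hormones were measured in the same cells. Of 24 receptor genes in the files 7 passed the filter and were higher in tdTom+ cells, beside 25.8% of all genes tested. A gene can pass through the tdTom+ libraries alone, so this count is no support for a direction of the list. With at least 10 counts required in every library, 5 receptors were higher and none lower. Over all genes under that rule 4448 were higher and 3356 lower. The somatostatin receptors *Sstr2* (3.72, SE 0.21), *Sstr3* (2.63), *Sstr1* (1.55) and *Sstr5* (1.45) were 4 of the 7. *Sstr2* had 44 to 103 counts in tdTom+ and 1 to 11 in tdTom- libraries. *Npy1r* (0.94), a peptide YY and neuropeptide Y receptor, *Galr1* (0.91), a galanin receptor, and *Glp1r* (0.61, SE 0.17, adjusted p 0.0055 and 0.0234 without the block, edgeR) were the others. The receptors *Cckbr*, *Sctr*, *Ntsr1*, *Npy4r*, *Npy5r*, *Ghsr* and *Tacr3* were at 0 in all 16 libraries.

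Sensors of nutrients, by which enteroendocrine cells detect luminal content, were higher in 8 of 9 tested, beside 25.8% of all genes tested. As for the receptors, a gene can pass the filter through the tdTom+ libraries alone, so the count is no support for a direction. With at least 10 counts required in every library, 4 sensors were higher and 1 lower. Over all genes under that rule 4448 were higher and 3356 lower. *Ffar4*, a receptor for long-chain fatty acids, had the largest log2 fold change at 4.86 (SE 0.14, adjusted p 3.7e-12, edgeR), from 0.537 to 15.8 CPM. *Ffar2*, for short-chain fatty acids, was at 3.40, *Gpr119*, for lipid amides, at 2.22, and *Trpa1*, an irritant channel of enterochromaffin cells, at 1.96. *Ffar3* was at 1.01 (adjusted p 9.0e-04 and 0.0197 without the block, edgeR). *Lpar5*, a receptor for lysophosphatidic acid, was lower at -0.96 (SE 0.07).

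The genes most like each hormone were sought by Pearson's r of log2 CPM over the 16 libraries, after the mean of each fraction was taken off, among 13952 genes with a mean of at least 1 CPM. This describes variation among mice, in libraries that share mouse and depth, and has no test. *Cck* was closest to *Lmx1a* (r 0.917), with the granin *Scg3* also among its 3 closest (0.878), and *Sct* was closest to *Scg3* (0.911), with *Pyy* also among its 3. *Sst* was closest to the ion channel *Asic5* (0.938) and to *Iapp* (0.931), followed by *Dbp* (0.902), a transcription factor driven by the circadian clock. *Dbp* ran from 2.60 CPM in mouse 7 to 32.7 CPM in mouse 4 in tdTom- libraries. *Gip* was closest to *Ccdc114* (0.941), *Gpr17* (0.934) and *Osbpl3* (0.932), and *Nts* to *Mmp23* (0.961), *Nlrp1b* (0.944) and a gene without a symbol (0.943). *Pyy* was closest to *Sct*, then to *Gm16011* (0.859) and another gene without a symbol (0.858). *Ghrl* was closest to *Tle6* (0.846), *Rgs4* (0.837) and *Asb13* (0.824), and *Tac1* to *Gm8618* (0.865), *Gdf15* (0.863) and *Mex3b* (0.862). For *Gcg* the values were 0.773 for *Cplx2*, a complexin of vesicle release, 0.768 for the Paneth cell defensin *Defa28*, whose counts can be shared with near-identical copies, and 0.757 for *Actg1*, a cytoskeletal actin. The remaining genes were *Galntl6* for *Cck* (0.888) and *Gpx3* for *Sct* (0.891).

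Other cell types differed between the fractions along with the hormones, where 25.8% of all genes tested were higher and 30.0% lower in tdTom+ cells. Goblet and Paneth markers were higher in 8 of 8 and 8 of 8 tested, with medians of 7.22 and 7.43, and their summed levels were 128100 to 264200 and 52680 to 139500 CPM in tdTom+ against 952 to 1511 and 405 to 595 CPM in tdTom- libraries. Tuft markers were higher in 7 of 7 (median 1.86, 86.3 to 324 against 17.7 to 102 CPM), absorptive markers lower in 8 of 8 (median -3.06, 1563 to 6021 against 14550 to 38350 CPM) and immune markers lower in 6 of 7 (10.7 to 30.2 against 19.3 to 139 CPM). The hormones summed to 1083 to 1728 CPM in tdTom+ and 255 to 736 CPM in tdTom- libraries, a far smaller gap than that of goblet or Paneth markers. The part of these cell types in the hormone differences was not tested.

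As to the region sampled, *Fabp6* and *Slc10a2*, which define the ileum, had at most 9 and 11 counts in any library, whereas *Lct*, of the upper small intestine, had 1421 to 67810. Of the markers of the proximal small intestine 1 of 6 was higher and 3 lower, and of the distal ones 4 of 4 tested were lower, beside 25.8% higher and 30.0% lower over all genes, with summed levels of 272 to 567 against 1010 to 3565 CPM and 114 to 287 against 631 to 1303 CPM. Colonic markers were lower in 3 of 5, and *Car1* and *Hoxb13* had at most 3 counts. *Gcg*, *Nts* and *Pyy*, known mainly from the lower small intestine, were thus measured in proximal tissue with almost no *Fabp6* or *Slc10a2*, and their levels farther down were not analysed here.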

How the data were processed

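The 16 libraries were grouped by their group label and paired by the replicate number in the title, since the series design takes both fractions from each of 8 mice. The authors sorted live cells, made stranded mRNA libraries and aligned 50-base single reads to GRCm38 with TopHat2 2.1.1 (version from the submitters' processing notes). Raw counts for each Ensembl gene were deposited, made with featureCounts on the reverse strand, primary alignments only. Totals ran from 17116405 to 25323567. Near-identical genes can share reads.

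Symbols were matched for 44585 of 45513 identifiers, and for 180 of 182 listed symbols (not *Cblif* or *Galr3*). Counts were analysed in R 4.3.3 with edgeR 4.0.16: filterByExpr, TMM scaling and the quasi-likelihood test with the mouse as a replicate block, Benjamini-Hochberg over 15323 genes, threshold 0.01. Libraries of 1 mouse deviated together from their group means (r 0.245 to 0.634). The steps were tested on simulated data. *Gal* was left out of tests on ratios, which leaves 36 pairs of hormones. The genes named were *Atoh1*, *Epcam*, the hormones, in each list the called genes with the largest and smallest fold change at 1 CPM or more with others a count needed, and the 3 genes most like each hormone. The hormones and gene lists were chosen with earlier results of these data known. Alternatives used DESeq2 1.42.0, limma 3.58.1, other scaling, filters and thresholds, thinning, no block and leaving out mice.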

Additional observations from a re-analysis of the deposited data

Results flagged for a closer look

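The *Sst* level in the tdTom- library of mouse 7 stood apart from the other mice. On the log2 CPM scale it was 3.89, where the other 7 tdTom- libraries lay between 5.67 and 6.54, and the gap took 0.671 of the whole range, past Dixon's critical value for 8 samples. It was 1 of 27 sets examined, and chance flags about 1 in 20 such sets. The same library was also the lowest tdTom- library for *Gip*, *Sct*, *Nts*, *Pyy* and *Ghrl*, but not for *Gcg*, *Cck* or *Tac1*. Without mouse 7 the log2 fold change of *Sst* was 1.10 (adjusted p 9.21e-06, edgeR).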

How the results depend on the processing

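The log2 fold changes of the 9 hormones tested were taken under 20 alternatives each, 2 of them other thresholds on the same fit. Of the 180 values 171 kept direction and side of the threshold, 5 lost the call of *Pyy* and 4 turned the sign of *Nts*, whose value is near 0. Without the replicate block *Pyy* was at 0.61 and *Nts* at -0.14, and no other hormone call changed. Leaving out each mouse in turn gave 0.54 to 0.79 for *Pyy* (the call was lost without mouse 5 or 6) and -0.10 to 0.25 for *Nts* (negative without mouse 7 or 8). Without mice 7 and 8 together, a choice made after seeing the data, they were at 0.53 and -0.20. Why the calls moved was not tested. A required absolute log2 fold change of 1 ended the call of *Pyy* (0.66) by construction and left 1740 genes higher and 1758 lower, 4 receptors higher and 0 nutrient sensors lower. TMM without the 10 most counted genes raised the median log2 fold change of all genes by 0.105, and those of the hormones with it. That median also rose by 0.105 on thinning, by 0.106 with at least 10 counts in every library and by 0.105 without mouse 3.

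At least 10 counts in every library tested fewer genes and left 1 other gut peptide, 4 nutrient sensors and 1 gastric marker called higher. At an adjusted p under 0.05, 1 other gut peptide was called lower (0 to 1 on leaving out a mouse). Without the filter, and with DESeq2, 2 neuronal or glial markers were higher and 1 lower. Rank correlation passed 0 relations across mice. On leaving out a mouse, mean differences ran from -0.086 to 0.104 for *Sct* less *Sst*, from -0.079 to 0.208 for *Sst* less *Gip* and from -0.137 to 0.127 for *Gip* less *Cck*. Without division by exon length, shares in tdTom+ and tdTom- libraries were 14.3% and 3.88% for *Gcg*, 14.1% and 15.2% for *Sct*, 3.86% and 9.86% for *Nts*, 2.93% and 0.599% for *Tac1*, and 8.04% in tdTom+ libraries for *Ghrl*. *Gal* had too few counts for a test of its ratio.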
